A study of Mus musculus with 4 samples.

Results

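The cytosolic ribosomal protein genes were examined here in mouse kidney cells, as 85 of the 31053 features in the count tables. Members were taken by symbol: Rpl or Rps followed by a digit, plus the stalk genes Rplp0, Rplp1 and Rplp2 and the small subunit gene Rpsa. Symbols with -ps, the S6 kinases of the Rps6k family and Rps19bp1 were left out. The rule used no measured value, and it gave 33 small subunit and 52 large subunit genes, with 8 paralogues (Rpl3l, Rpl7l1, Rpl10l, Rpl22l1, Rpl36al, Rpl39l, Rps27l and Rps27rt) among them.

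Each ribosome is built from a small subunit, which reads the mRNA, and a large subunit, which joins amino acids, and every copy needs about equal numbers of each protein. The mRNAs of these proteins are abundant in most cells, and in mammals many begin with a C followed by a run of pyrimidines, the terminal oligopyrimidine or TOP motif, through which mTOR and Larp1 control their translation. FGF23 is a hormone from bone that acts in the kidney with its co-receptor Klotho, and in the proximal tubule it lowers phosphate uptake and the making of active vitamin D.

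The study injected C57BL/6 mice of 10 weeks once into the peritoneum with 10 µg of recombinant human FGF23 and took kidneys 1, 4 or 12 h later; the control library is labelled 0 h with no FGF23, while its matrix as deposited is named for saline, with a time of 1 h. Kidneys of a male and a female were digested together for each library, dead cells were removed with Annexin V beads, and droplet single-cell libraries with unique molecular identifiers (UMIs) were made. There was 1 library at each time, so library and time cannot be told apart and no difference below was tested. Intervals are 95% and cover counting error only, and all 3 treated libraries were set against the same 0 h library.

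The 4 libraries held 12245 to 13813 barcodes and 139675666 to 158838728 UMIs, and 9477 to 11120 cells were kept. Clusters were named from marker genes, and a name with "-like" is a rebuilt class, not the authors' annotation. Proximal tubule-like (PT-like) cells numbered 6705, 6293, 7292 and 6433 over the 4 libraries in order of time, and all 10 of their markers were detected, with a summed level of 14790 to 15265 counts-per-million of UMIs (CPM). Distal convoluted and connecting tubule-like (DCT/CNT-like) cells numbered 305 to 402 in a library, with all 7 markers detected at a summed 16204 to 18716 CPM. Markers of B cells summed to at most 1.86 CPM in PT-like cells, while the DCT/CNT-like sums were 3.46, 1.13, 3.99 and 11.4 CPM over the libraries, against 10895 or more in B-like cells. Unnamed clusters held 4.60% to 6.28% of the cells.

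The sequence around the annotated start of the members that the results turn on was read from RefSeq on GRCm38.p6, on the strand of the transcript. Each line gives 15 bases before the start and 15 from it on. Capitals mark the annotated first base or, where it is a C followed by at least 4 bases that are each C or T, the whole C and T run from that base. The first 4 lines are members that stood apart at 4 h, the next 4 members that stood apart at 12 h, and the last 5 are the S6 kinase target Rps6, a stalk gene and 3 genes of paralogue pairs; for Rps27l and Rpl3l the first of 2 listed starts is shown.
Rpl36al (chr12:69184053-69184082, minus strand): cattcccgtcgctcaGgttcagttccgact
Rps2 (chr17:24720048-24720077, plus strand): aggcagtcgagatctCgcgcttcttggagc
Rpl41 (chr10:128549154-128549183, minus strand): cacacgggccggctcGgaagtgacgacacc
Rpl35 (chr2:39005117-39005146, minus strand): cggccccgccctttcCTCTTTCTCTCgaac
Rps23 (chr13:90923107-90923136, plus strand): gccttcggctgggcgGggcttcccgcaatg
Rpl5 (chr5:107900513-107900542, plus strand): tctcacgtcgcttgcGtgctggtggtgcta
Rpl13a (chr7:45128731-45128760, minus strand): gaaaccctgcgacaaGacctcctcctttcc
Rps18 (chr17:33955651-33955680, minus strand): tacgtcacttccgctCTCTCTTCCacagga
Rps6 (chr4:86857353-86857382, minus strand): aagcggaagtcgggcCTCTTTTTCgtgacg
Rplp2 (chr7:141447636-141447665, plus strand): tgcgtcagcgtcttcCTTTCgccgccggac
Rps27 (chr3:90213634-90213663, minus strand): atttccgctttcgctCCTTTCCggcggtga
Rps27l (chr9:66946071-66946100, plus strand): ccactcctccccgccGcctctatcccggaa
Rpl3l (chr17:24727811-24727840, plus strand): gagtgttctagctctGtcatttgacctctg

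That start pattern, searched on the transcript strand only, was found at 1 or more listed starts in 14 of the 65 members with an entry, or 21.5%, against 813 of 27025 genes with an entry, or 3.01%. The 14 were Rpl14, Rpl15, Rpl28, Rpl35, Rpl35a, Rpl38, Rplp2, Rps10, Rps15a, Rps18, Rps21, Rps27, Rps27rt and Rps6. No match says only that these letters are not at the annotated first base.

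Lymphocytes gave the largest part of their UMIs to ribosomal protein genes and the distal nephron and neutrophils the smallest. In PT-like cells the members took 5.74% of UMIs at 0 h, with an exact interval of 5.74 to 5.75. Their later levels were 6.04%, 6.82% and 6.64% in order of time. In B-like cells they took 24.7%, 25.8%, 29.0% and 28.8% over the 4 libraries in order of time. At 0 h the B-like level was 4.30 times the PT-like one, a log2 ratio of 2.10 (2.10 to 2.11). The B-like and PT-like values do not overlap over the 4 libraries.

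The levels at 0, 1, 4 and 12 h were 25.9%, 27.5%, 27.3% and 30.7% in T and NK cell-like (T/NK-like) cells. Between single T/NK-like cells at 0 h the lower and upper quartiles were 17.1% and 34.2%, a wider spread than the 23.2% and 28.9% of B-like cells. Endothelial-like cells stood between the lymphocytes and the tubule at 8.72%, 8.62%, 9.08% and 9.48%. Principal cell-like (PC-like) cells of the collecting duct, which take up sodium and water, had 6.03%, 6.30%, 6.80% and 6.95%. Intercalated cell-like (IC-like) cells, which secrete acid or base, had 4.69%, 4.69%, 5.09% and 5.78%.

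Thick ascending limb-like (TAL-like) cells had 4.34%, 4.50%, 4.95% and 4.89% at the same times. The DCT/CNT-like levels were 3.86%, 3.77%, 4.37% and 4.83%. Neutrophil-like cells had 3.32%, 3.65%, 4.63% and 4.42%, from 352 cells at 0 h but only 56 at 12 h. Macrophage-like cells, 43 in the 4 h library and left out of what follows, had 16.5%, 16.6%, 18.7% and 17.1%. Ranked at 0 h, the order was T/NK, B, endothelial, PC, PT, IC, TAL, DCT/CNT and neutrophil. Only the steps from B-like to endothelial-like and from endothelial-like to PC-like separate classes whose ranges over the 4 libraries do not overlap.

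Mitochondrial transcripts took 23.7% of UMIs in PT-like, 34.0% in DCT/CNT-like and 13.1% in B-like cells at 0 h, and they are part of the denominator of these levels. With mitochondrial UMIs left out, the B-like level remained above the PT-like one by a log2 ratio of 1.92. Markers of PT cells summed to 821 CPM in B-like cells at 0 h and 372 to 530 CPM later, against 14790 or more in PT-like cells, and the part of such outside RNA in the B-like level was not tested.

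**Figure D1:**
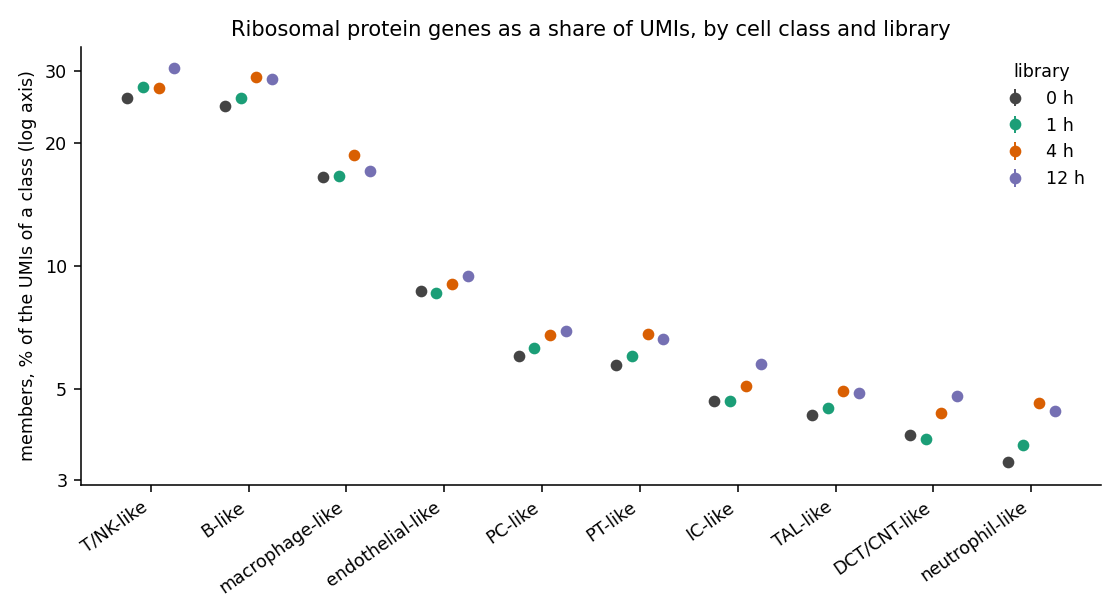
Percent of UMIs (y axis, log scale) from the 85 members, by class (x axis), with 1 point for each of the 4 libraries and exact intervals that are mostly smaller than the points. B-like and T/NK-like cells lie between 24.7% and 30.7%, and DCT/CNT-like cells between 3.77% and 4.83%.

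The make-up of the ribosomal protein mRNA pool also differed between classes. For each class the UMIs of 1 member were divided by those of all members, which removes the level of the pool; UMI counts are not scaled by transcript length, so values are compared between classes and not between genes. Rps27l, a paralogue of Rps27 known as a p53 target, had the widest range of the 79 members with enough UMIs. It gave 0.998%, 0.963%, 0.924% and 0.908% of member UMIs in PT-like cells at 0, 1, 4 and 12 h, and 0.0506%, 0.0388%, 0.0362% and 0.0401% in B-like cells. PT-like was the highest and B-like the lowest of the 9 classes in each of the 4 libraries. Against the UMIs of all genes Rps27l stood at 573 CPM in PT-like and 125 CPM in B-like cells at 0 h, so it was lower in B-like cells on that scale too. The PT markers found in B-like cells, at the 821 CPM given above, bear on this value, and their part in it was not tested.

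Neutrophil-like cells held most of the other extremes. Rps9, a small subunit protein of the mRNA channel, gave 7.20%, 7.65%, 7.25% and 8.85% of neutrophil-like member UMIs at the 4 times. Its lowest class in each library gave 1.26% to 1.31%. Rpl12, at the base of the stalk, was lowest in neutrophil-like cells at 0.212% and highest in T/NK-like cells at 1.72%.

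Rpl10a, of the L1 stalk where spent tRNA leaves, was at 0.168% in neutrophil-like and 1.17% in PT-like cells at 0 h. Rpl3, which lies close to the catalytic centre, was at 0.207% in neutrophil-like and 1.16% in PC-like cells. For Rpl12, Rpl10a and Rpl3 neutrophil-like cells were lowest in each of the 4 libraries, while the highest class of Rpl10a and Rpl3 changed between libraries. All neutrophil-like members together had 20794, 21610, 6993 and 3943 UMIs in order of time. The shares of these 3 genes at 4 and 12 h thus rest on few UMIs, and the minimum of 20 UMIs was applied at 0 h only. Rpl7l1, a nucleolar relative of Rpl7, ran from 0.0239% in T/NK-like to 0.124% in PC-like cells. Among the steadiest members at 0 h were Rpl18 at 1.15% to 1.38% and Rpl23 at 2.10% to 2.45%.

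Large subunit genes gave more UMIs for each small subunit UMI in epithelial than in blood-derived classes. The large to small ratio was 1.35 to 1.40 over the 4 PT-like samples, 1.38 to 1.41 among DCT/CNT-like and 1.43 to 1.46 among PC-like cells. It was 1.08 to 1.11 in B-like, 1.102 to 1.13 in T/NK-like and 0.993 to 1.05 in neutrophil-like cells. Endothelial-like cells lay between at 1.24 to 1.27, and none of these ranges overlaps those of the epithelial classes named here.

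**Figure D2:**
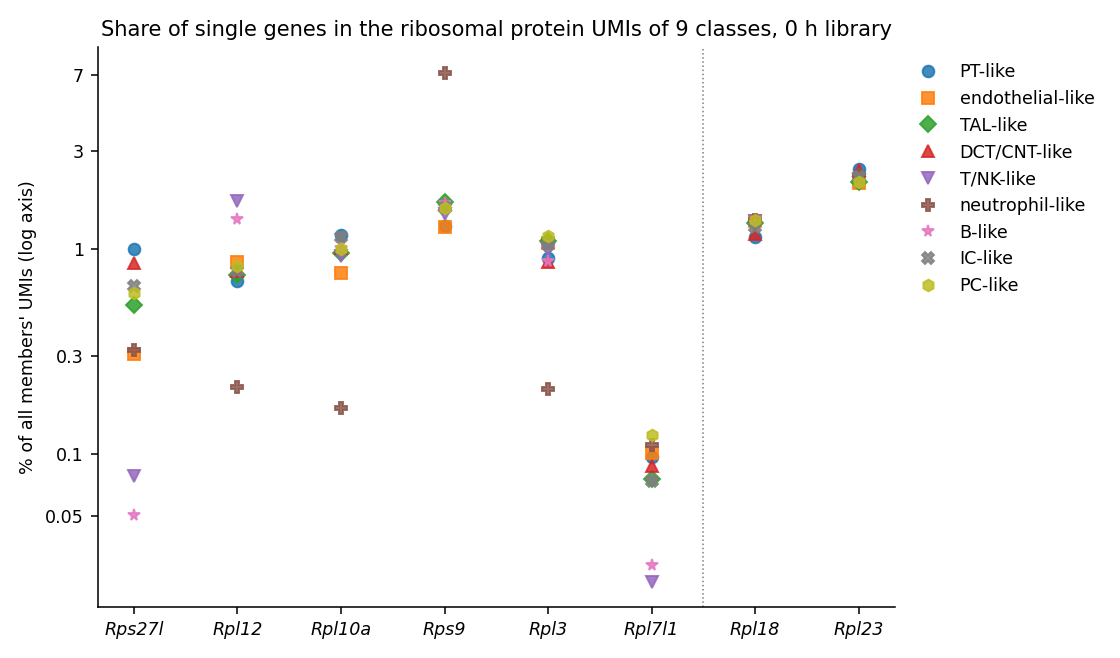
Percent of each class's member UMIs (y axis, log scale) from the 6 members with the widest range over 9 classes at 0 h and from Rpl18 and Rpl23, of narrow range, with 1 point per class. Rps27l runs from 0.0506% in B-like to 0.998% in PT-like cells, while Rpl23 stays between 2.10% and 2.45%.

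In PT-like cells nearly all members stood above the 0 h library at every later time, by small amounts. Of the 83 members that reached 100 UMIs when both libraries were added, 77, 80 and 81 were above 0 h in the libraries at 1, 4 and 12 h, against 53.2%, 56.3% and 53.5% of all genes tested. The median log2 ratio was 0.06, 0.23 and 0.21, beside 0.01, 0.04 and 0.02 for all genes. At least 1.2-fold higher, a log2 ratio of 0.263 or more, were 0, 28 and 26 of the 83 members, beside 6.47%, 21.6% and 17.1% of all genes. At least 1.2-fold lower were 0, 0 and 1, beside 7.84%, 15.8% and 14.5%. The member that was lower was Rpl3l. The minimum on UMIs left out Rpl10l and Rpl39l, which had few or no UMIs.

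The direction was the same in both proximal tubule segment classes and in cells called female or male from sex-linked transcripts. The size differed. Early proximal tubule-like (PT-S1/S2-like) cells had 6.19%, 6.63%, 7.25% and 7.13% of UMIs from members at 0, 1, 4 and 12 h. Late proximal tubule-like (PT-S3-like) cells had 5.49%, 5.56%, 6.58% and 6.14%. Nearly all sex-called PT-S3-like cells were male-called in each library, though each library pooled a male and a female. Under which class late proximal tubule cells of the female were named was not tested. Female-called PT-like cells had 5.99%, 6.46%, 7.36% and 6.80%, and male-called ones 5.46%, 5.55%, 6.20% and 6.14%. At 1 h the median log2 ratio was 0.09 for PT-S1/S2-like against 0.01 for PT-S3-like cells, and 0.11 in female-called and 0.01 in male-called cells. Sex and segment overlapped: at 0 h PT-S3-like cells held 77 female-called and 1779 male-called cells, and PT-S1/S2-like cells 1368 and 908. The splits by segment and by sex are therefore not separate comparisons. Within PT-S1/S2-like cells, female-called cells had 6.06%, 6.52%, 7.41% and 6.81% over the libraries, and male-called ones 5.49%, 5.79%, 5.95% and 6.49%.

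Several library features moved with these ratios, and their part in them was not tested. Mitochondrial UMIs took 23.7%, 23.9%, 18.9% and 23.7% of PT-like UMIs, so the 4 h library had the smallest share. With mitochondrial UMIs out of the denominator every PT-like log2 ratio at 4 h was lower by 0.09. The median of members was then 0.14, beside -0.04 for all genes, and 72 of 83 members were above 0 h. The share of all genes above 0 h is not given for this denominator. At least 1.2-fold higher were 8 of the 83, a smaller share than the 14.3% of all genes. At 12 h, where the mitochondrial share was 23.7% as at 0 h, the members took 8.71% of non-mitochondrial UMIs against 7.53% at 0 h. The median UMIs of a PT-like cell were 12096, 12868, 11536 and 10615. In cells of low depth, by tertiles set on the 0 h library, the levels were 5.86%, 6.28%, 7.02% and 6.97%, and in cells of high depth 5.62%, 5.86%, 6.67% and 6.25%.

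The clusters that make up the PT-like class also differed between libraries. Cluster 1, PT-S3-like, held 20.2%, 16.7%, 1.26% and 0.529% of PT-like cells, and cluster 7, also PT-S3-like, 0.403%, 0.667%, 12.8% and 11.0%. Markers of PT-S3 cells, all 6 detected, summed to 1317, 1103, 888 and 681 CPM in PT-like cells over the libraries, lowest at 12 h, and their part in the ratios was not tested. The members' level was above that at 0 h in 13 of 16 PT-like clusters at 1 h, in 16 of 16 at 4 h and in 14 of 15 at 12 h, counting clusters with at least 50 cells in both libraries. Cluster 7, with 27 cells at 0 h, enters none of these counts, and cluster 1, with 34 cells at 12 h, does not enter the last. Weighting the clusters as at 0 h gave median log2 ratios of 0.02, 0.20 and 0.11 in order of time. Cluster 1 held 20.2% of PT-like cells at 0 h but had only 92 cells at 4 h and 34 at 12 h, so few of its cells can enter these values.

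**Figure D3:**
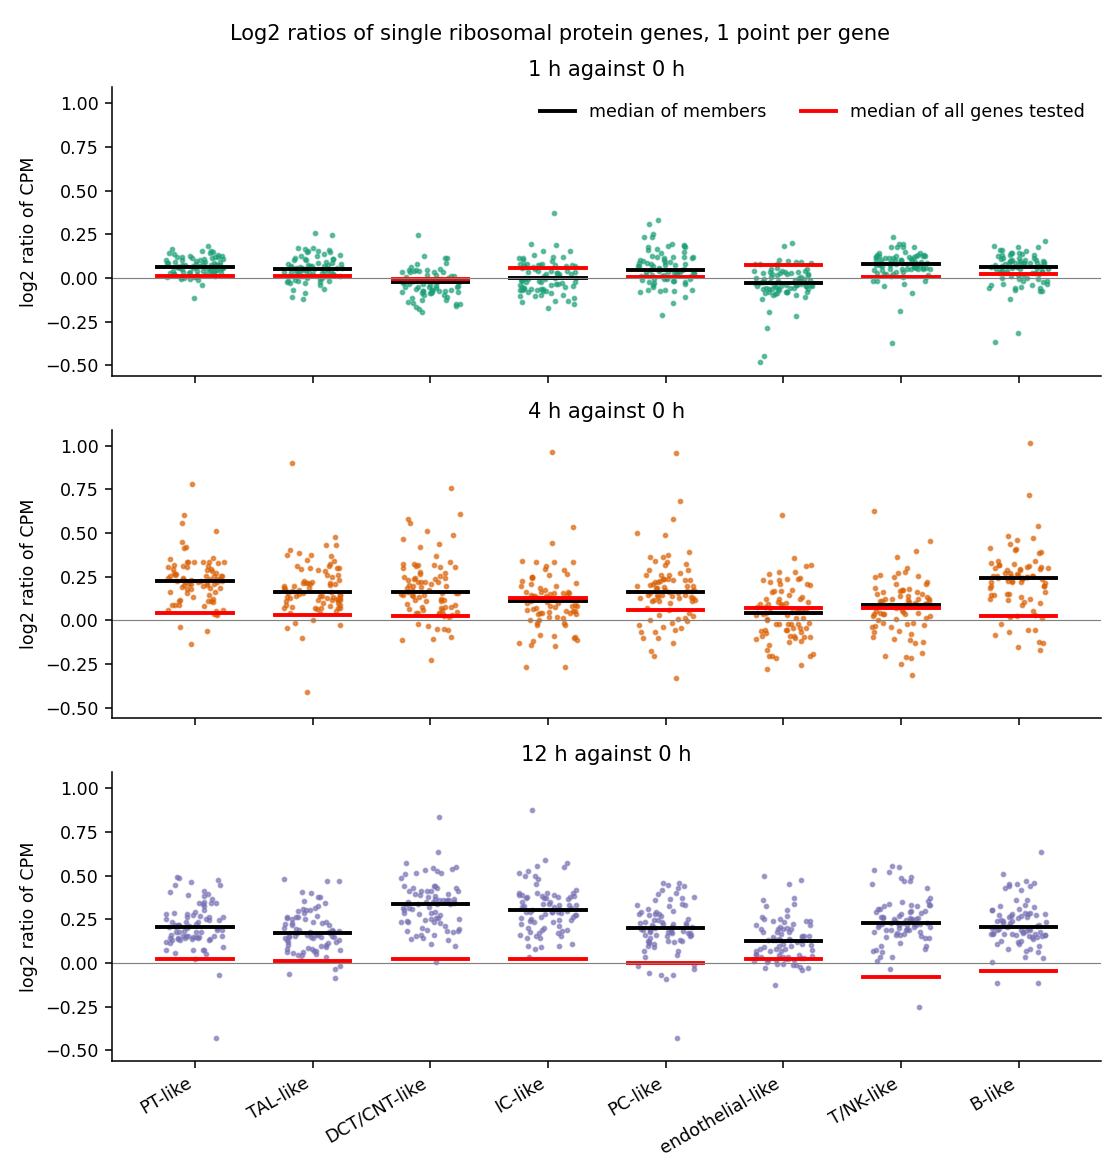
Log2 ratio of CPM to 0 h (y axis) of each member that passed the UMI minimum, by class (x axis), with a panel for each of 1, 4 and 12 h; black bars are medians of members and red bars medians of all genes tested. The PT-like member medians are 0.06, 0.23 and 0.21 and the DCT/CNT-like ones -0.02, 0.17 and 0.34.

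The stalk genes were among the members above 1.2-fold in PT-like cells at both later times. Rplp0, the stalk's anchor, had 1135, 1256, 1547 and 1436 CPM over the 4 libraries in order of time, with log2 ratios of 0.15, 0.45 (0.43 to 0.46) and 0.34. Rplp1, which with Rplp2 recruits elongation factors, had 1142, 1257, 1529 and 1472 CPM, with ratios of 0.14, 0.42 and 0.37. Rplp2 had 465, 492, 585 and 573 CPM, with ratios of 0.08, 0.33 and 0.30. The stalk's part of member UMIs in PT-like cells was 4.77%, 4.98%, 5.37% and 5.24%, lowest at 0 h.

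Small subunit genes differed in the time at which they stood highest. Of 33 in PT-like cells, 14 were at least 1.2-fold higher at 4 h and 8 at 12 h, beside 21.6% and 17.1% of all genes. Rps2, near the mRNA entry site, had 1504, 1618, 2284 and 1668 CPM over the 4 libraries in order of time, with log2 ratios of 0.11, 0.60 (0.59 to 0.61) and 0.15. It stood high at 4 h, and Snhg9, on the opposite strand within Rps2, had 7.14, 5.40, 12.0 and 5.96 CPM. Rpsa, also known as the laminin receptor precursor, had 891, 938, 1139 and 992 CPM, highest at 4 h by 0.35.

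Rps6, the substrate of the S6 kinases, was highest at 12 h, with 464, 472, 529 and 615 CPM and ratios of 0.02, 0.19 and 0.41. Rps23, which lies in the decoding centre, was highest at 12 h too, with 738, 800, 915 and 1034 CPM and ratios of 0.12, 0.31 and 0.49 (0.47 to 0.50). Rps3, at the mRNA entry channel, had 755, 792, 923 and 876 CPM, a ratio of 0.29 at 4 h and 0.21 at 12 h. Rps4x, encoded on the X chromosome, had ratios of 0.09, 0.25 and 0.15. At 1 h the highest ratios were those of Rps21 at 0.18, from 612 to 694 CPM, Rpl36a at 0.17 and Rpl37 at 0.15. The lowest at 1 h were Rps27rt at -0.11 (-0.23 to 0.00), Rpl36al at -0.04 and Rpl17 at -0.01.

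Of 50 large subunit genes, 14 were at least 1.2-fold higher at 4 h and 18 at 12 h, beside 21.6% and 17.1% of all genes. Rpl36al, the autosomal copy of the X-linked Rpl36a, had 119, 115, 204 and 148 CPM over the 4 libraries in order of time, and its log2 ratio of 0.78 (0.75 to 0.82) at 4 h was the highest of the members. Rpl41, the smallest ribosomal protein, had 1168, 1290, 1717 and 1343 CPM and a ratio of 0.56 at 4 h. Only Rpl36al and Rps2 passed 1.5-fold at 4 h. Rpl35, which lies at the exit tunnel, had 325, 347, 296 and 359 CPM and was the lowest member at 4 h, at -0.14 (-0.16 to -0.11), followed by Rpl17 at -0.06 and Rpl23a at -0.04.

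At 12 h Rpl5, which carries the 5S RNA into the large subunit and binds Mdm2, was the highest of the large subunit genes. It had 417, 440, 443.5 and 585 CPM over the 4 libraries in order of time, with a log2 ratio of 0.49 (0.47 to 0.51). Its partner Rpl11 had 879, 892, 953 and 1000.1 CPM and a ratio of 0.19 at 12 h. Rpl12 had 400.0, 415, 426 and 556 CPM, with a ratio of 0.47, and Rpl13a, which has a role in interferon responses, had 78.8, 80.5, 85.6 and 108 CPM, with 0.46. Rpl3 had 517, 557, 652 and 674 CPM and a ratio of 0.38. Rpl29 at 0.02 and Rpl22l1 at -0.07 were with Rpl3l the lowest members at 12 h.

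Genes of a paralogue pair could be highest in different libraries. Rps27 had 460.2, 509, 470.5 and 512 CPM in PT-like cells and Rps27l 573, 582, 631 and 603. Rpl22 had ratios of 0.11, 0.26 and 0.25, while its paralogue Rpl22l1 had 0.03, 0.04 and -0.07. Rpl36a had 276.5, 310.4, 315 and 362 CPM, highest at 12 h where Rpl36al was highest at 4 h. Rpl10 had 878, 939.9, 916 and 966 CPM and Rpl39 674, 714, 713 and 699, whereas their copies Rpl10l and Rpl39l, known from testis, had 0 to 2 and 0 to 3 UMIs in any class and library.

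Rpl3l, a paralogue of Rpl3 known from heart and skeletal muscle, was detected at a low level in PT-S3-like and in DCT/CNT-like cells. It had 6.14, 6.19, 7.32 and 4.56 CPM in PT-like cells, with a log2 ratio at 12 h of -0.43 (-0.62 to -0.24). In PT-S3-like cells it had 10.1, 12.1, 14.3 and 9.39 CPM and in PT-S1/S2-like cells 0.695, 0.629, 1.07 and 1.01. The DCT/CNT-like values were 10.1, 15.3, 14.9 and 10.3 CPM, from 35 to 67 UMIs in a library, with ratios of 0.60 (-0.04 to 1.26), 0.56 (-0.05 to 1.19) and 0.03 (-0.68 to 0.74). Within PT-S3-like cells the 12 h ratio was -0.10, and PT-S3-like cells made up 28.6%, 24.8%, 24.1% and 21.0% of all cells. The next gene past its end on the same strand, Msrb1, had 705 CPM in PT-S3-like against 274 in PT-S1/S2-like cells at 0 h, and whether its reads add to Rpl3l was not tested. Rpl3l lies at chr17:24727820-24736143 and Msrb1 at chr17:24736642-24742778, both on the plus strand of GRCm38.

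DCT/CNT-like cells, of a segment known for high Klotho, differed little from 0 h at 1 h and most at 12 h. Above 0 h were 22 of 81, 74 of 83 and 81 of 81 members at 1, 4 and 12 h, beside 48.8%, 52.8% and 52.7% of all genes. The median log2 ratios were -0.02, 0.17 and 0.34, beside -0.01, 0.03 and 0.02 for all genes. At least 1.2-fold higher were 0, 22 and 54 members, beside 15.2%, 25.9% and 25.3%, and 0 were as much lower at any time, beside 13.6%, 22.4% and 20.2%. At 12 h the 54 were 21 of 32 small and 33 of 49 large subunit genes.

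Rps18, of the small subunit head, had 421, 415, 565 and 654 CPM over the 4 libraries in order of time in DCT/CNT-like cells, with ratios of -0.02, 0.42 and 0.64 (0.54 to 0.73). Rpl13a had 31.7, 31.1, 43.7 and 56.4 CPM and the highest ratio at 12 h, 0.83 (0.49 to 1.18). Rpl5 had 257, 260.5, 265 and 382 CPM, and only the 12 h value stood apart, at 0.57. Rpl36al had 67.1, 63.6, 114 and 85.3 CPM, highest at 4 h by 0.76 (0.53 to 0.99), and Rps2 had 677, 699, 1031 and 806, highest at 4 h by 0.61. Rps27rt, a retrotransposed copy of Rps27, had 0.58 at 4 h with an interval of -0.04 to 1.22.

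Rpl35 in DCT/CNT-like cells had 213, 195, 182 and 288 CPM, lowest at 4 h by -0.22 (-0.37 to -0.08) and highest at 12 h by 0.44. Rps27 and Rpl7a, at -0.11 each, were the other lowest members at 4 h. At 1 h the ends were Rpl7l1 at 0.24 (-0.12 to 0.61), Rpl4 at 0.12 and Rpl23a at 0.11, and Rpl15 at -0.20 (-0.29 to -0.10), Rpl10a at -0.18 and Rpsa at -0.17. At 12 h the lowest were Rps29 at 0.01, Rpl36 at 0.10 and Rpl39 at 0.11. The stalk genes Rplp0, Rplp1 and Rplp2 had 12 h ratios of 0.44, 0.38 and 0.24, Rps6 0.43, Rps3 0.35, Rpl3 0.51, Rpl11 0.32 and Rps4x 0.16.

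Mitochondrial UMIs took 34.0%, 33.8%, 28.6% and 32.2% of DCT/CNT-like UMIs. With these left out, every ratio at 4 h was lower by 0.11, the member median was 0.05 and that of all genes -0.09. Above 0 h were then 54 of 83 members, and the share of all genes above 0 h is not given for this denominator. At least 1.2-fold higher were 9 members, a smaller share than the 17.7% of all genes. As much lower was 1 member, beside 2132 of 6718 genes. At 12 h the median was then 0.30 and 49 members were at least 1.2-fold higher, beside 21.4% of all genes. The class consisted of cluster 13 and cluster 38, and cluster 38 held 7.67%, 4.26%, 13.2% and 24.4% of it. The members' level was 3.83%, 3.76%, 4.35% and 4.79% in cluster 13 and 4.45%, 4.64%, 4.59% and 5.19% in cluster 38. Female-called cells had 3.82%, 3.79%, 4.45% and 5.06% and male-called ones 3.83%, 3.78%, 4.27% and 4.54%, both highest at 12 h. Markers of TAL cells summed to 4052, 4023, 3950 and 2618 CPM in the DCT/CNT-like class over the libraries in order of time, with 6, 6, 5 and 5 of 6 detected. They were lowest at 12 h, where the members were highest, and their part in the ratios was not tested.

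In 6 other classes the members were mostly above 0 h at 12 h. At 4 h the sign of the median depended on the denominator in endothelial-like and IC-like cells. The median log2 ratios at 4 and 12 h were 0.04 and 0.12 in endothelial-like, 0.16 and 0.17 in TAL-like, 0.09 and 0.23 in T/NK-like, 0.24 and 0.21 in B-like, 0.11 and 0.30 in IC-like and 0.16 and 0.20 in PC-like cells. Over all genes the medians were 0.07 and 0.02, 0.03 and 0.01, 0.07 and -0.08, 0.02 and -0.05, 0.13 and 0.02, and 0.06 and 0.00, in the same order. Neutrophil-like cells, with 80 and 56 cells at these times, had medians of 0.50 and 0.37 over the 67 and 65 members that passed the UMI minimum, beside 0.10 and 0.16 for all genes, and are left out of the counts below. Without mitochondrial UMIs the 4 h median of members became -0.01 in endothelial-like and -0.02 in IC-like cells, and in the other 4 it was 0.03 to 0.18. At 12 h it was then 0.11 to 0.27 over these 6 classes.

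At least 1.2-fold higher at 4 h were 7 of 81 members in endothelial-like cells (23.7% of all genes), 20 of 81 in TAL-like (18%), 7 of 82 in T/NK-like (21.8%), 30 of 80 in B-like (19%), 11 of 81 in IC-like (30.3%) and 16 of 81 in PC-like cells (25.4%). At 12 h the counts were 9 of 82 (16.2%), 20 of 81 (14.6%), 29 of 82 (9.56%), 28 of 81 (12.9%), 52 of 81 (18.9%) and 25 of 81 (17.3%), in the same order. At 4 h the share of members lay below the background in endothelial-like, T/NK-like, IC-like and PC-like cells and above it in TAL-like and B-like cells. At 12 h the members' share was above the background in 5 of these 6 classes, all but endothelial-like.

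Many members lay on the same side of 0 h in every class of a library. Over 8 classes, neutrophil-like cells left out for their few UMIs, 0 of 80, 40 of 79 and 63 of 80 members measured in each were above 0 h in all at 1, 4 and 12 h, beside 2.58%, 24.5% and 10.7% of all genes so measured. Without mitochondrial UMIs in the denominator 20 of 79 were above 0 h in all at 4 h and 60 of 80 at 12 h, beside 11.5% and 9.29%. At 4 h Rpl36al was higher in all 8, by 0.24 to 1.02 on the log2 scale, as were Rps2 by 0.32 to 0.68, Rpl41 by 0.23 to 0.58 and Rps18 by 0.20 to 0.49. Below 0 h in all 8 at 4 h were 2 of 79 members, beside 3.55% of all genes: Rpl35, at -0.41 to -0.14, and Rpl17, at -0.25 to -0.03. Without mitochondrial UMIs these 6 genes kept their direction in all 8 classes, Rps18 at 0.07 or more and Rpl17 at -0.10 or less.

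At 12 h Rps23 was higher in all 8 classes by 0.33 to 0.56, Rpl5 by 0.24 to 0.57 and Rpl12 by 0.25 to 0.54. Rps18 was higher in all 8 at 12 h as well, by 0.26 to 0.64, and Rps6 by 0.27 to 0.64. Rpl17, below 0 h in all 8 at 4 h, was above it in all 8 at 12 h, by 0.21 to 0.52. Rpl36al at 12 h ran from -0.03 to 0.55 and Rpl35 from -0.01 to 0.44. The 8 classes share a library at each time, so they are not replicates of it.

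**Figure D4:**
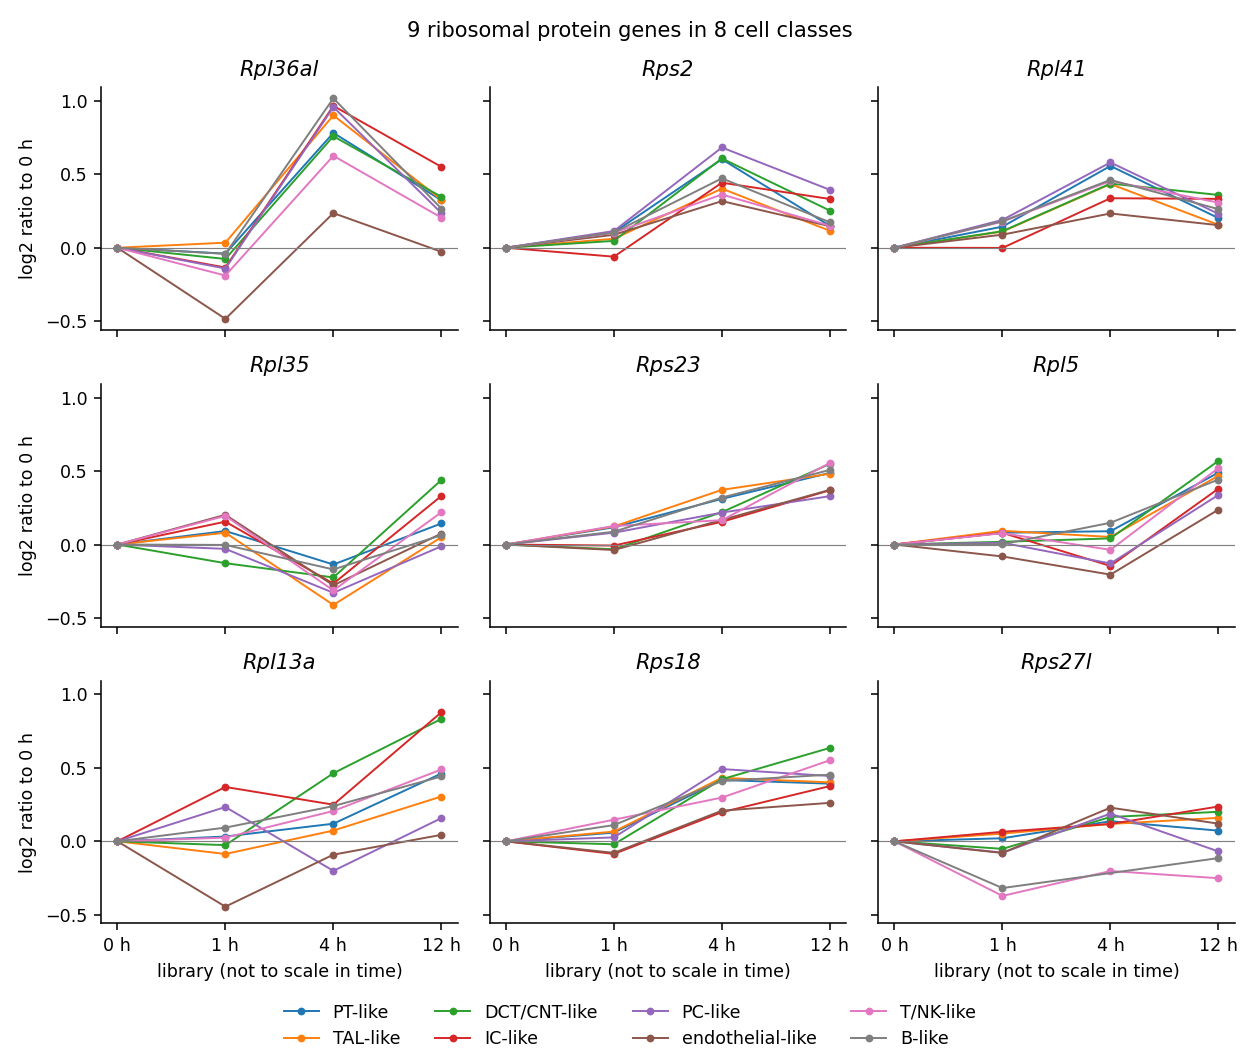
Log2 ratio to 0 h (y axis) of 9 members, 1 panel each, over the libraries in order of time (x axis, not to scale), with 1 line for each of 8 classes; a class under the UMI minimum has no point. Rpl36al lies between 0.24 and 1.02 and Rpl35 between -0.41 and -0.14 at 4 h, and Rps23 between 0.33 and 0.56 at 12 h.

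Other genes of ribosome making and use were described from 4 lists. The 38 ribosome biogenesis genes, which make and process ribosomal RNA and assemble subunits, had PT-like median log2 ratios of 0.10, 0.58 and 0.15, and 6, 28 and 8 were at least 1.2-fold higher, with 0, 0 and 1 lower. Among all genes in PT-like cells the medians were 0.01, 0.04 and 0.02, with 6.47%, 21.6% and 17.1% higher and 7.84%, 15.8% and 14.5% lower. At 4 h Grwd1, an assembly factor of the large subunit, was highest, with 6.79 CPM at 0 h and 14.5 at 4 h, a ratio of 1.097 (0.96 to 1.24). Gar1, of the particle that makes pseudouridine, had 12.6 and 22.9 CPM. Nhp2, of the same particle, had 150.0, 127, 149 and 108 CPM and was the lowest at 12 h, at -0.47. Tsr1 at 0.47 and Gnl3 at 0.44 were highest at 1 h and Lyar at 0.51 and Eif6 at 0.48 at 12 h, while Nhp2 at -0.24 and Polr1b at -0.10 were lowest at 1 h, Rpf2 was at 0.07 at 4 h and Rrs1 at -0.19 at 12 h. In DCT/CNT-like cells 17 of the 27 measured biogenesis genes were at least 1.2-fold higher and 2 lower at 4 h, with a median of 0.44, beside 25.9% higher, 22.4% lower and a median of 0.03 among all genes. The ribosomal protein genes had a smaller median at 4 h than the biogenesis genes in both classes, and this difference was not tested.

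The 14 elongation factors and other TOP genes outside the rule had PT-like medians of 0.05, 0.23 and 0.11, with 0, 4 and 4 at least 1.2-fold higher, beside 6.47%, 21.6% and 17.1% of all genes, and 0, 1 and 0 lower, beside 7.84%, 15.8% and 14.5%. Npm1, a nucleolar chaperone, had 223, 254, 294 and 293 CPM, highest at 4 and 12 h. At 1 h Eef1a1 was next at 0.13, at 4 h Eef1b2 at 0.27, and at 12 h Eef1g was at 0.39; low ends were Eef1d at -0.02, Eef2 at -0.13 and Btf3 at 0.01 at the same times. The 78 mitochondrial ribosomal protein genes, for the separate ribosome of that organelle, had PT-like medians of 0.00, 0.17 and 0.11. Of these, 0 of 78, 10 of 77 and 8 of 77 were at least 1.2-fold higher, and 0, 1 and 0 lower. Those shares lie below the 6.47%, 21.6% and 17.1% of all genes that were higher and the 7.84%, 15.8% and 14.5% that were lower. Their ends at 1 h were Mrps28 at -0.14 and Mrpl1 at -0.12, and Mrpl47 at 0.18 and Mrpl53 at 0.17. At 4 h they were Mrpl27 at -0.27 and Mrps2 at -0.21, and Mrps22 at 0.39 and Mrpl19 at 0.37. At 12 h they were Mrps6 at -0.21 and Mrps2 at -0.19, and Mrps18c at 0.53 and Mrpl52 at 0.42.

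The 12 genes that control TOP translation and S6 phosphorylation had PT-like medians of 0.06, 0.06 and 0.05, and single genes among them differed more than any member. Ddit4, an inhibitor of mTOR complex 1, had 7.97, 2.50, 4.86 and 2.54 CPM, with ratios of -1.67, -0.71 and -1.65. Sesn2, a leucine sensor that also restrains mTOR complex 1, had 16.5, 19.2, 35.9 and 31.4 CPM, with 0.22, 1.12 and 0.93. Myc, a transcription factor that acts on ribosome genes, had 5.41, 7.07, 7.02 and 2.12 CPM, highest at 1 and 4 h and lowest at 12 h by -1.35 (-1.61 to -1.096). Mtor itself was at -0.16 and -0.37 at 1 and 4 h, and Eif4ebp1, a repressor of translation that mTOR switches off, at 0.28 at 12 h. Of the 12 genes 1, 3 and 2 were at least 1.2-fold higher and 1, 2 and 3 lower, beside the same shares of all genes as for the TOP genes above.

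**Figure D5:**
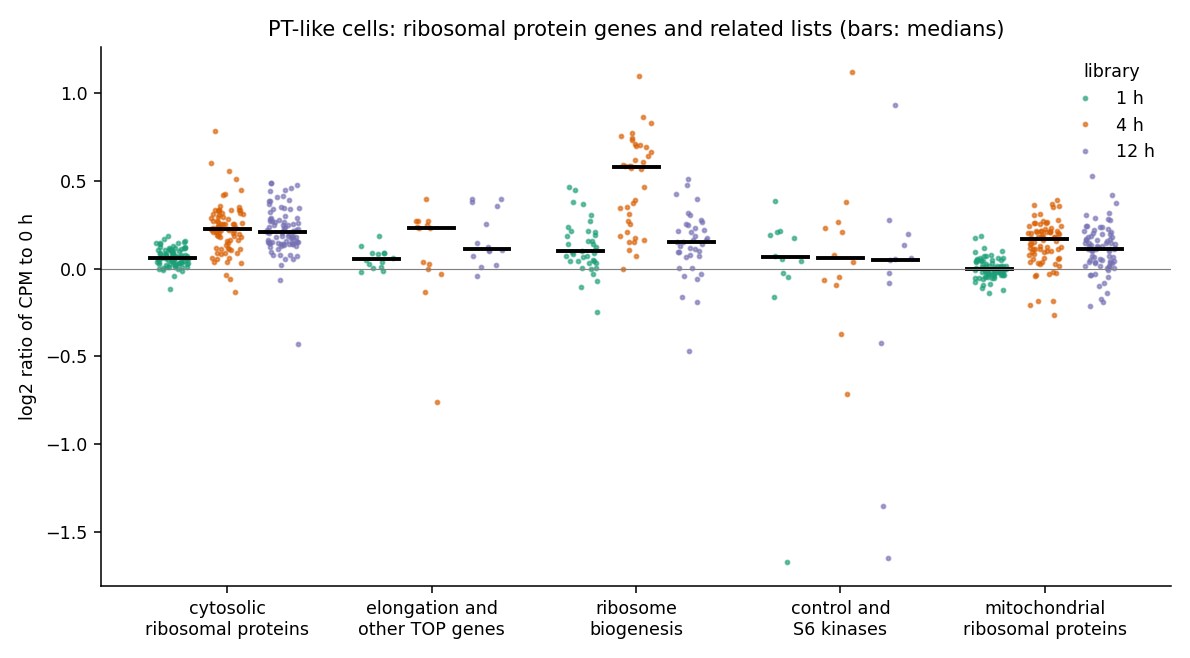
Log2 ratio to 0 h (y axis) in PT-like cells of the genes of the members and of 4 related lists (x axis) at 1, 4 and 12 h, with the median of each. The biogenesis median is 0.58 at 4 h against 0.23 for the members.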

How the data were processed

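The authors deposited 10x matrices of UMI counts per gene and barcode, 1 per library; cell classes were rebuilt from markers. Per the submitters' processing notes, Cell Ranger 3.1.0, STAR and Seurat were used with mm10; how reads that match several genes were counted is not given in the sources used here. Barcodes with fewer than 300 genes or over 50% mitochondrial UMIs were left out, and doublets were called against simulated pairs (7.59% to 8.89% of cells) and removed. Cells were clustered (30 principal components, 20 neighbours, leidenalg 0.10.2, scikit-learn 1.9.0, resolution 1.5) on 2020 genes that held no member, mitochondrial or related-list gene. Xist and the Y-linked genes used to call sex were left out too, but other X-linked genes and genes that differ between the sexes were not. Of 49 clusters, 13 stayed unnamed; the thresholds for naming were set after the clusters were seen. Libraries shared 36 to 57 barcodes in pairs, up to 0.465% of the smaller.

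For each class in a library the UMIs were added up and divided by their total, as CPM or percent. Macrophage-like cells, under 50 at 4 h, were left out, which left 9 classes. Shares have exact Clopper-Pearson intervals and log2 ratios exact conditional binomial intervals, computed with scipy 1.17.1, numpy 2.4.6 and pandas 2.3.3 and tested on simulated data. A member was counted in a comparison once it had 100 UMIs over both libraries, and called past 1.2-fold. Named were the members with the 6 widest and 3 narrowest ranges of share over classes with at least 20 UMIs in each, the 3 highest and 3 lowest ratios at each time in the PT-like and in the DCT/CNT-like class, set genes of the stalk, the subunits and the paralogue pairs, and the ends of each related list. Some genes that this rule names are not reported here. Genes named for their ratios over 8 classes were chosen after their values were seen. The members and lists were chosen with earlier results of these data known. Of the 31053 gene IDs, 30934 were found in GENCODE vM21, which gave the coordinates. By that annotation 24 members overlap another gene; reads of the pair may not be told apart. Same-strand neighbours of Rpl13a, Rpl36al and Rpl13 had 0 UMIs in PT-like cells.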

Additional observations from a re-analysis of the deposited data

Results flagged for a closer look

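At 1 h the ratio to 0 h of the members summed did not have the same sign in all classes; this difference was not tested, and each side is 1 library. On the log2 scale it was 0.0725 in PT-like, 0.0554 in TAL-like, 0.0852 in T/NK-like, 0.14 in neutrophil-like, 0.0646 in B-like and 0.0622 in PC-like cells. It was -0.0333 in DCT/CNT-like and -0.0166 in endothelial-like cells. IC-like cells hardly differed, with 4.687% of UMIs from members at 0 h and 4.690% at 1 h.

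Symbols with -ps, pseudogenes that the member rule left out, held 3057 UMIs in PT-like cells at 0 h. There were 9 such symbols, of which Rpl36-ps4 had 0 UMIs in these cells. The UMIs of the 9 equal 0.0603% of the members' UMIs there.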

How the results depend on the processing

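No direction reversed under any alternative run for the PT-like and DCT/CNT-like medians and counts and the B-like to PT-like ratio. Of the alternative values, 31 stayed within the counting error of the ratio of the members summed, or within 1.5 times a count, and 64 moved. That error is not one of the median over members, for which no interval is given. Left out of the denominator, mitochondrial UMIs reversed the 4 h median in endothelial-like (-0.0132) and IC-like cells (-0.0154), a check added after seeing the data. With 1 library per time, no library could be left out. Median log2 ratios of members below follow the order 1, 4 and 12 h where 3 are given. In PT-like cells (0.06, 0.23 and 0.21) they were 0.014, 0.17 and 0.17 in male-called cells, 0.11, 0.28 and 0.19 in female-called cells, 0.0916, 0.21 and 0.20 in PT-S1/S2-like cells, 0.00822, 0.24 and 0.16 in PT-S3-like cells, 0.0843, 0.24 and 0.24 with cells weighted equally, 0.0674, 0.24 and 0.22 without the members in the denominator, and 0.0185, 0.20 and 0.11 with clusters weighted as at 0 h, chosen after seeing the data. Without mitochondrial UMIs they were 0.0671 at 1 h and 0.14 at 4 h. With a mitochondrial limit of 25% they were 0.17 at 4 h and 0.22 at 12 h, with no UMI minimum 0.23 and 0.21, and at 12 h 0.21 both with doublet calls kept and without clusters of low depth, the latter added after seeing the data. In DCT/CNT-like cells (-0.02, 0.17 and 0.34) they were -0.035, 0.14 and 0.23 in male-called cells, -0.0105, 0.20 and 0.41 in female-called cells, -0.0463, 0.14 and 0.29 with the 25% limit, and -0.0354, 0.14 and 0.28 with the 2 unnamed clusters nearest to DCT/CNT, added after seeing the data. Doublet calls kept gave -0.0379 at 1 h and 0.15 at 4 h, mitochondrial UMIs left out 0.0517 at 4 h and 0.30 at 12 h, cells weighted equally 0.20 and 0.38, and the members left out of the denominator 0.35 at 12 h. At 1.1-fold, members higher numbered 8, 63 and 68 in PT-like cells and 1 and 50 at 1 and 4 h in DCT/CNT-like cells, where 8 and 1 were lower. At 1.5-fold, 2 and 0 were higher at 4 and 12 h in PT-like cells, with 0 lower at 12 h, and 2 and 2 in DCT/CNT-like cells. The shares of all genes past 1.1-fold and 1.5-fold are not given here, so these counts have no background beside them. The B-like to PT-like log2 ratio of 2.10 was 2.03 with the 25% limit, 1.92 without mitochondrial UMIs, 2.43 without the members in the denominator and 2.13 with cells weighted equally. The causes were not tested. Counting error is small for PT-like sums and wide for members under 50 CPM in DCT/CNT-like cells. No paired analysis was possible because there is 1 library per group.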
